A study of Saccharomyces cerevisiae with 3 samples.

Results

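This account describes what separated yeast cells of the 7th generation from cells of the 1st generation on 1 of the 3 two-colour arrays of the study. The array was chosen by its label alone, as the only one that carried 7th generation RNA. Cells came from BY4742, a haploid laboratory strain of budding yeast of mating type alpha from which HIS3, LEU2, LYS2 and URA3 have been deleted. Older cells had been marked with biotin on their surface, grown in rich medium (YPD) at 30 °C and recovered with magnetic beads that bind biotin once they had reached the 4th, 7th or 11th generation. Amplified antisense RNA of the 7th generation carried the dye Cy3 and that of the 1st generation the dye Cy5, and both were hybridised together. The other 2 arrays held the 4th and the 11th generation in Cy3, again with the 1st generation in Cy5. The sources used here do not say how cells of the 1st generation were collected, or whether the same RNA of them was used on every array.

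Each generation was measured on 1 array, with no replicate and no dye swap. No value below therefore has a replicate error, no test was possible, the number of arrays limits the precision, and generation and dye bias of a probe cannot be told apart. The ratios of the 3 arrays share the 1st generation as their reference and are given side by side as values of single arrays. All values are of whole RNA pools, in which fewer cells of a kind and less RNA per cell cannot be told apart.

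Budding yeast divides asymmetrically: the mother keeps most of its old cell wall and surface proteins, and the daughter is born with a newly made wall. A mother can bud only a limited number of times, and this replicative ageing is accompanied in many studies of yeast by loss of vacuolar acidity, changes in mitochondrial function, an iron-starvation response and accumulation of extrachromosomal ribosomal DNA. Because biotin marks the old wall, which daughters do not inherit, a biotin-based isolation enriches mothers over their daughters. No lifespan was measured here, so where these generations lie in the replicative life of the strain is not known from these data.

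The array carried 5792 features for yeast genes in 16 print blocks. The median raw intensity was 496 in the Cy3 channel of the 7th generation and 161 in the Cy5 channel of the 1st generation. The median feature thus had a higher raw number in Cy3 than in Cy5, and a ratio is read only after normalisation within print blocks. A feature was counted as measured when its raw signal in at least one channel passed the mean plus 2 SD of 320 blank spots, which was 70.5 in Cy3 and 26.4 in Cy5. This held for 5567 features, of which 5350 passed in both channels, 28 in Cy3 only and 189 in Cy5 only. The 8 spots for ACT1, the actin gene, gave log2 ratios between -0.07 and 0.52, with a mean of 0.23 and an SD of 0.178 across spots. That SD describes how repeated spots of the same array differ, not how repeated cultures would. The alpha-specific genes had raw signals between 718 and 5212 in the 7th generation and between 1177 and 7657 in the 1st. Genes specific to cells of mating type a, which an alpha strain keeps off, lay between 60.9 and 235.5 in the 7th generation and between 30.1 and 86.9 in the 1st.

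In the 7th generation 129 of 5567 features, 2.32% of all, were at least 2-fold higher than in the 1st generation, and 113, 2.03% of all, were at least 2-fold lower. The threshold of 2-fold is a log2 ratio of 1 either way, and it is a rule of size and not a test. Every one of these features had signal above the blank spots in both channels. At least 4-fold differences were found for 16 features on the higher side and 8 on the lower side. The middle of the distribution was narrow: the quartiles of the log2 ratio were -0.26 and 0.29, and its SD over features was 0.491. That SD was 0.488 on the 4th generation array, where 2.17% of measured features lay at least 2-fold above and 2.49% below the 1st generation. On the 11th it was 0.648, and these shares were 5.75% and 3.84%. The 8 ACT1 spots differed more on the 11th generation array too, with an SD of 0.618 and a lowest log2 ratio of -1.54. Their SD was 0.182 on the 4th and 0.178 on the 7th. The part of this spot spread in the values of the 11th generation array was not tested. Among the counted features, 93 of the 129 and 67 of the 113 were past 2-fold in the same direction under all 5 other scalings of the intensities. Brighter features passed 2-fold more often, from 0.647% of the 1392 dimmest to 7.61% of the 1392 brightest. Features without a gene symbol made up 18 of the higher and 14 of the lower ones, from 445 measured. Named genes made up 111 and 99, from 5091 measured.

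**Figure D1:**
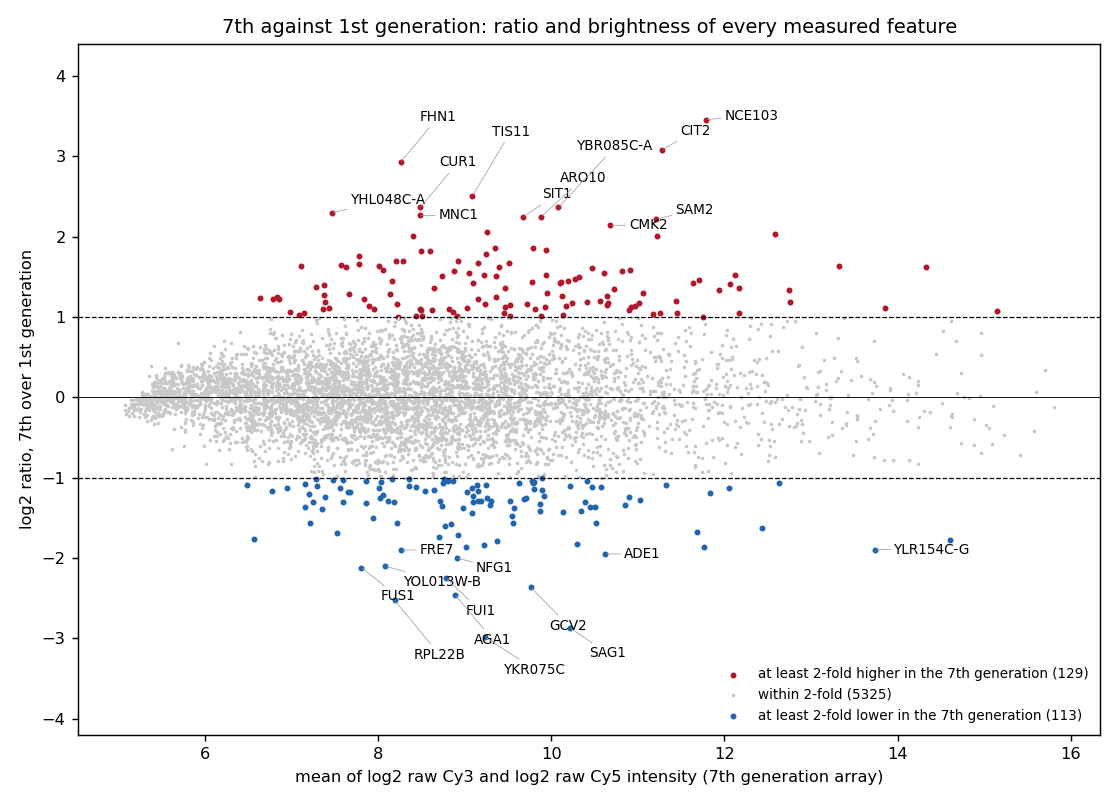
Each point is 1 of the 5567 measured features of the 7th generation array, with the mean of its log2 raw Cy3 and log2 raw Cy5 intensity on the horizontal axis and its normalised log2 ratio of 7th over 1st generation on the vertical axis. The 129 features at least 2-fold higher are red, the 113 at least 2-fold lower are blue, dashed lines mark 2-fold, and the 12 highest and 12 lowest named features are labelled. NCE103 at 3.46 is the highest point and YKR075C at -2.99 the lowest, and the spread of the points is narrower among dim features.

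The transcript that was highest in 7th generation cells relative to the 1st generation was NCE103, which encodes carbonic anhydrase, the enzyme that turns carbon dioxide into bicarbonate. It gave raw intensities of 19433 in the 7th generation and 638 in the 1st, which after normalisation was 11.0-fold higher. CIT2, the peroxisomal citrate synthase and a classic target of the retrograde signal from mitochondria to the nucleus, gave 9899 in the 7th generation and 619 in the 1st, 8.45-fold higher. FHN1, a protein of the plasma membrane compartment organised by eisosomes, gave 1496 in the 7th generation and 62.9 in the 1st, 7.62-fold higher. In all 3 of these genes the raw Cy3 signal exceeded Cy5 by far more than the median feature did.

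Iron genes and a protein-sorting gene followed. TIS11, an RNA-binding protein that destabilises messages of iron-consuming proteins, gave 2229 in the 7th generation and 133 in the 1st, 5.69-fold higher. SIT1, a transporter of siderophore-bound iron, gave 3390 in the 7th generation and 196 in the 1st, 4.74-fold higher. CUR1, which helps to sort misfolded proteins, gave 1368 in the 7th generation and 94.1 in the 1st, 5.15-fold higher. Enzymes of amino acid metabolism and a kinase were also among the 12. ARO10, the phenylpyruvate decarboxylase that feeds the Ehrlich pathway of amino acid breakdown, gave 3303 in the 7th generation and 269 in the 1st, 4.75-fold higher. SAM2, an S-adenosylmethionine synthetase, gave 7026 in the 7th generation and 801 in the 1st, 4.65-fold higher. CMK2, a calmodulin-dependent protein kinase, gave 5589 in the 7th generation and 483 in the 1st, 4.42-fold higher. The remaining 3 were YBR085C-A, YHL048C-A and MNC1, at 5.16-fold, 4.92-fold and 4.81-fold higher. In YHL048C-A the 1st generation signal was 32.9, close to the background limit of 26.4, and the 7th generation signal was 948.

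The lowest transcript was YKR075C, a gene of unknown function whose file annotation describes control by glucose, with raw intensities of 316 in the 7th generation and 1157 in the 1st, 7.94-fold lower. SAG1, the alpha-agglutinin of the cell surface used in mating, gave 718 in the 7th generation and 1966 in the 1st, 7.30-fold lower. Further mating genes stood among the 12 lowest. AGA1, which anchors the partner agglutinin to the wall, gave 369 in the 7th generation and 608 in the 1st, 5.48-fold lower. FUS1, a membrane protein needed for cell fusion, gave 150 in the 7th generation and 335 in the 1st, 4.34-fold lower. For SAG1, AGA1 and FUS1 the raw Cy3 signal fell short of Cy5, against the general offset between the channels.

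Other genes of the low end belonged to metabolism and transport. GCV2, a subunit of the glycine cleavage complex of mitochondria, gave 698 in the 7th generation and 1081 in the 1st, 5.14-fold lower. FUI1, the uridine permease, gave 387 in the 7th generation and 503 in the 1st, 4.77-fold lower. NFG1, a negative regulator of filamentous growth, gave 346 in the 7th generation and 665 in the 1st, 4.00-fold lower. The Cy5 signal of these 3 genes, which stands for the 1st generation on every array, varied by at most 1.13-fold over the 3 arrays after normalisation. That was not so for 3 others of the 12. RPL22B, for a protein of the large ribosomal subunit, was 5.76-fold lower with 221 in the 7th generation and 387 in the 1st. ADE1, an enzyme of purine synthesis, was 3.86-fold lower with 1523 in the 7th generation and 1629 in the 1st. FRE7, a putative ferric reductase of the copper response, was 3.73-fold lower with 297 in the 7th generation and 316 in the 1st. Their Cy5 signals varied 3.12-fold, 2.18-fold and 3.86-fold over the arrays, and the part this plays in their ratios was not tested. Their raw Cy3 signals varied too. RPL22B had Cy3 of 784, 221 and 1220.5 on the 4th, 7th and 11th generation arrays. ADE1 had 597, 1523 and 1320, and FRE7 had 73.3, 297 and 226. The last 2 were YOL013W-B, a dubious reading frame that overlaps a Ty1 long terminal repeat, at 4.29-fold lower, and YLR154C-G, a reading frame inside the ribosomal DNA repeat, at 3.72-fold lower. YLR154C-G gave 9445 in the 7th generation and 19879 in the 1st.

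The 4th and 11th generation arrays gave their own values for these 24 genes. NCE103 had log2 ratios of 3.00, 3.46 and 4.27 at the 4th, 7th and 11th generation, CIT2 2.05, 3.08 and 4.15, and TIS11 2.07, 2.51 and 3.47. SAG1 had -2.43, -2.87 and -3.87. In these 4 genes the 7th generation value lay between the other 2 arrays. CUR1, at 2.77, 2.37 and 1.87, and SAM2, at 2.44, 2.22 and 1.90, also lay between them, with the 4th generation value the highest. ARO10 stood at 2.14 and 2.25 at the 4th and 7th generation and at -0.10 at the 11th. YLR154C-G stood at -1.76, -1.89 and -0.39, and its raw Cy3 signal was 11196, 9445 and 20574 on the 3 arrays, against Cy5 signals of 19445, 19879 and 18697. YKR075C stood at -2.89, -2.99 and -1.82.

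**Figure D2:**
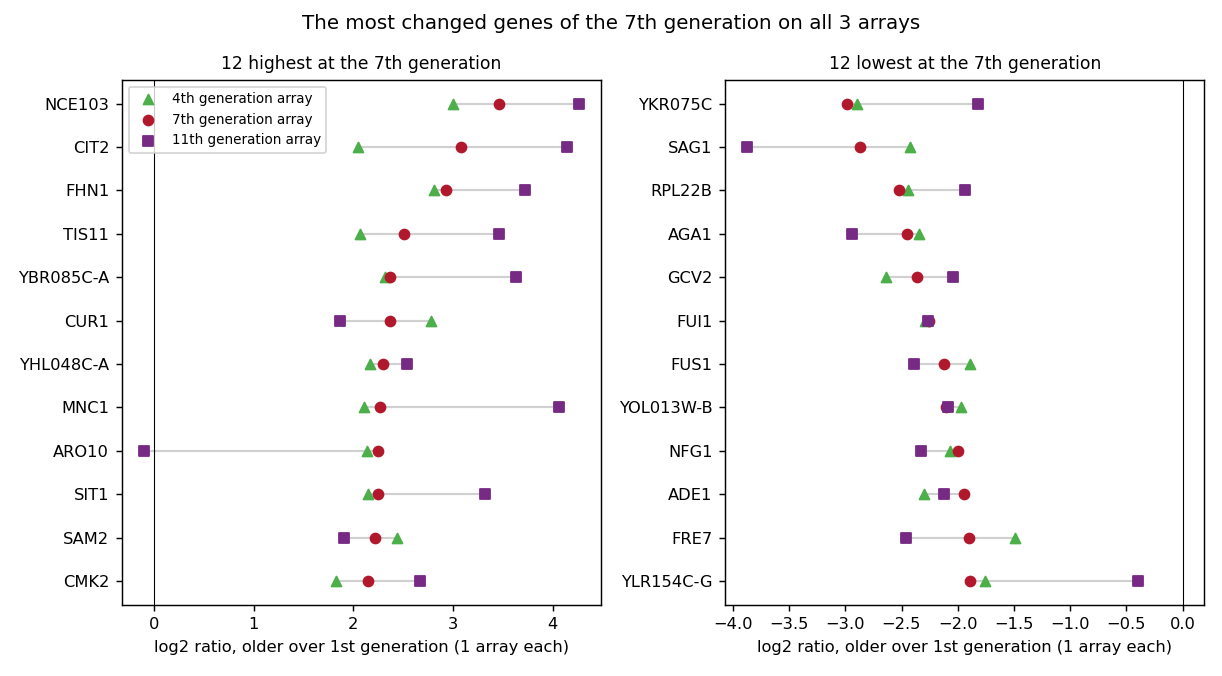
The 12 highest (left) and 12 lowest (right) named genes of the 7th generation array, one per row, with the log2 ratio of older over 1st generation on the horizontal axis for the 4th (triangle), 7th (circle) and 11th (square) generation arrays, 1 array each. ARO10 at the 11th generation, at -0.10, is the 1 value of the 24 genes on the other side of 0.

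Iron uptake was the gene list with the highest median. The list holds targets of Aft1 and Aft2, the transcription factors that turn on siderophore transport, wall proteins that retain iron and heme breakdown when iron is short. Its 16 members had a median log2 ratio of 0.75, against 0.0094 for all features, and 6 of them were at least 2-fold higher while none was 2-fold lower. Besides TIS11 and SIT1 these were FIT2 and FIT3, mannoproteins that hold siderophores in the wall, HMX1, the heme oxygenase, and ARN2, another siderophore transporter. FIT2 gave 1931 in the 7th generation and 167 in the 1st, 3.19-fold higher, and HMX1 gave 571 in the 7th generation and 69.1 in the 1st, 3.07-fold higher. FIT3 was 3.04-fold and ARN2 2.93-fold higher. All 6 were past 2-fold under every scaling that was tried. The high-affinity pair FET3 and FTR1, the multicopper oxidase and permease for reduced iron, had log2 ratios of 0.72 and 0.46, and the ferric reductase FRE1 had -0.45. The list's median was 0.84 at the 4th generation and 1.41 at the 11th. Counts past 2-fold in this and the following lists stand beside 2.32% of all features higher and 2.03% lower.

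The retrograde response list holds enzymes that supply glutamate precursors when respiration is impaired, under the factors Rtg1 and Rtg3. Of its 7 members 3 were at least 2-fold higher and none lower, and the median was 0.62. After CIT2 came DLD3, a cytosolic enzyme of D-lactate and 2-hydroxyglutarate metabolism, with 2091 in the 7th generation and 206 in the 1st, 2.85-fold higher. PYC1, a pyruvate carboxylase, gave 2675 in the 7th generation and 461 in the 1st, 2.72-fold higher, and its log2 ratio was 0.96 in the authors' deposited table. ACO1, the mitochondrial aconitase, was at -0.75. CIT2, DLD3 and PYC1 had 4th generation values of 2.05, 1.03 and 1.05 and 11th generation values of 4.15, 1.67 and 1.73. None of the 9 measured members of the glyoxylate cycle and gluconeogenesis list, which leaves CIT2 out, passed 2-fold, and PCK1, the gluconeogenic carboxykinase, was at 0.49, against 0.23 and 2.34 at the 4th and 11th generation.

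Genes of sulfate assimilation and methionine synthesis lay mostly above 0, with 23 of 26 positive, 4 at least 2-fold higher and none lower, and a median of 0.57. SAM2 led. MUP1, the high-affinity methionine permease, gave 8571 in the 7th generation and 1178 in the 1st, 2.68-fold higher, and MET6, the methionine synthase, was 2.30-fold higher. MUP3, a low-affinity methionine permease, was 2.28-fold higher and its log2 ratio of 1.19 was 0.79 after loess over the whole array. All 4 of these genes had 4th generation values above the 7th, at 2.44, 1.63, 1.57 and 1.39, and 11th generation values below it, at 1.90, 0.95, 0.83 and 1.07. Among the other amino acid lists, histidine synthesis had a median of -0.52 with 1 of 6 members at least 2-fold lower, which was HIS4 with 2331 in the 7th generation and 5159 in the 1st, 3.65-fold lower. The strain needs histidine from its medium because HIS3 is deleted, and any part of this in the histidine values was not tested. Branched-chain amino acid genes had a median of -0.28 with 1 of 10 at least 2-fold lower, the dihydroxyacid dehydratase ILV3, which contains an iron-sulfur cluster and gave 3841 in the 7th generation and 7983 in the 1st, 3.09-fold lower. Arginine and lysine genes had no member of 16 past 2-fold.

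One-carbon metabolism and purine synthesis, which share folate-bound carbon units and the transcription factor Bas1, were on the low side. Of 12 measured genes of glycine cleavage, serine and one-carbon metabolism, 5 were at least 2-fold lower and none higher, with a median of -0.60. After GCV2 these were SHM1, the mitochondrial serine hydroxymethyltransferase, with 2647 in the 7th generation and 4066 in the 1st, 3.19-fold lower, GCV3 at 2.60-fold lower, MTD1, a cytosolic methylenetetrahydrofolate dehydrogenase, at 2.57-fold lower, and SHM2, the cytosolic form of SHM1, at 2.19-fold lower. All 5 were past 2-fold under every scaling. SER3, which starts serine synthesis, was at 0.80. The purine list, which shares MTD1, had a median of -0.53, with 4 of 16 at least 2-fold lower and none higher. ADE17 was 2.58-fold and ADE2 2.43-fold lower, beside ADE1. The members of the guanine branch, IMD2, IMD3 and IMD4, had log2 ratios of 0.62, -0.35 and 0.23, and these 3 genes are near-identical copies whose signals an oligonucleotide may not keep apart. The medians of both lists were -0.63 and -0.62 at the 4th generation and -0.81 and -0.71 at the 11th, one-carbon first.

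Mating genes formed the lowest lists. In an alpha cell the factor Mcm1 with alpha1 turns on the genes for alpha-factor, alpha-agglutinin and the receptor for a-factor, and the pheromone pathway raises another set through Ste12. All 4 alpha-specific genes were below 0, with a median of -1.24, and 3 were at least 2-fold lower under every scaling. STE3, the receptor for a-factor, gave 1080 in the 7th generation and 1177 in the 1st, 2.68-fold lower. MF(ALPHA)2, a gene for alpha-factor, gave 5212 in the 7th generation and 7657 in the 1st, 2.09-fold lower. MF(ALPHA)1, the major alpha-factor gene, gave 2511 in the 7th generation and 1626 in the 1st, a log2 ratio of -0.65, and its Cy5 signal varied 1.99-fold over the arrays. The 4 genes had log2 ratios between -0.57 and -2.43 at the 4th generation and between -1.52 and -3.87 at the 11th. Of 15 measured pheromone-induced genes 13 were below 0 and 4 at least 2-fold lower. Their median was -0.79. Besides AGA1 and FUS1 these were SST2, which switches off the G protein of the pathway, at 2.98-fold lower, and PRM1, a membrane fusion factor, at 2.96-fold lower. GPA1, the G protein alpha subunit, was at -0.97 and FUS3, the kinase of the pathway, at -0.49. The 6 genes of the opposite mating type had ratios between -0.05 in MFA2 and 0.29 in MFA1, the gene for a-factor that was the brightest of them and had 0.58 at the 4th generation and 0.44 at the 11th. They are dim, and the offset of the background correction draws ratios of dim features towards 0.

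Genes that daughters express at birth or that separate them from their mothers were all below 0. Of 11 members 2 were at least 2-fold lower, and the median was -0.72. That median was -0.26 after whole-array loess, -0.51 with block centring and -0.42 in the authors' deposited table. It was -0.80 without background correction and -0.88 with blank subtraction. DSE4, a glucanase that cuts the septum from the daughter side, gave 509 in the 7th generation and 863 in the 1st, 3.44-fold lower. EGT2, a wall protein of cell separation, gave 1482 in the 7th generation and 1573 in the 1st, 2.16-fold lower, and its log2 ratio of -1.11 was -0.96 when each print block was centred on its median. DSE3 was at -0.99, and at -1.67 in the authors' deposited table, and SUN4, another glucanase of the septum, at -0.85. ASH1, the daughter repressor of mating type switching, was at -0.83, while the chitinase CTS1 was at -0.04. The median of the list was -0.62 at the 4th generation and -1.31 at the 11th. The share of newborn cells in each RNA pool was not measured, and its part in these values was not tested.

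**Figure D3:**
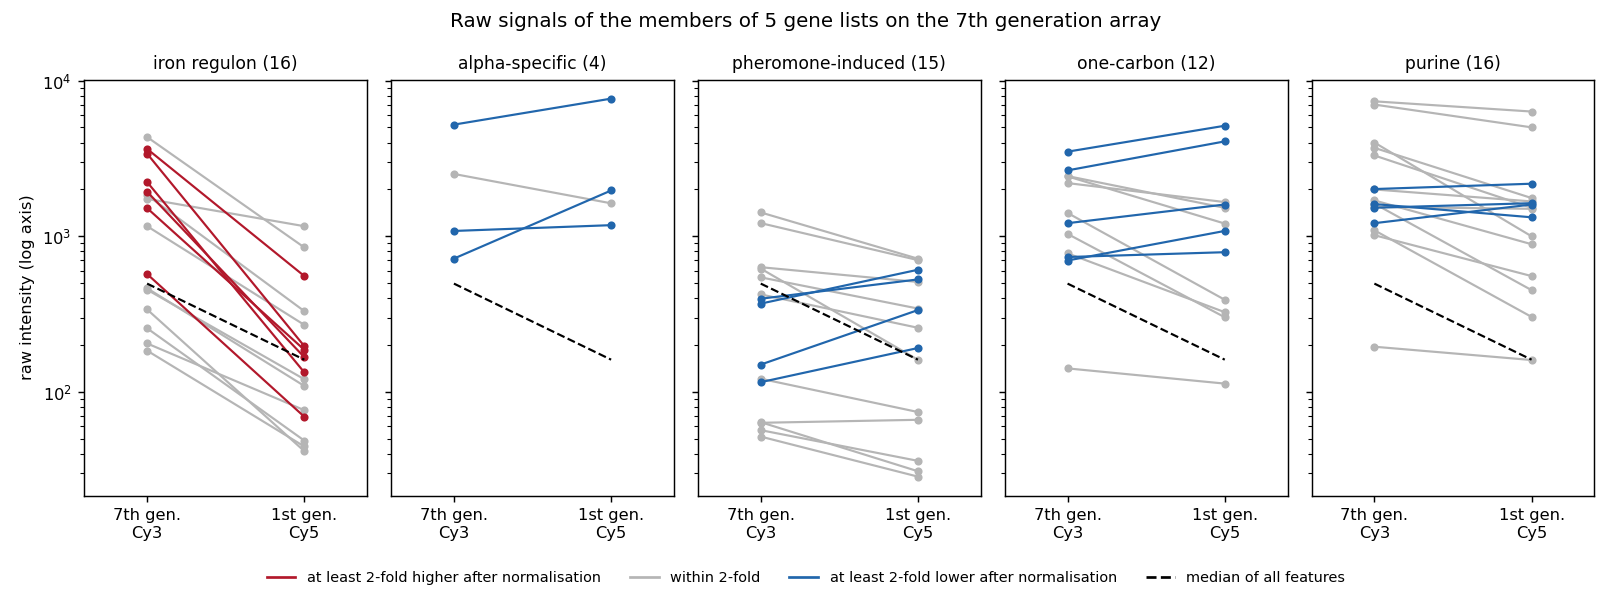
Raw intensities of the measured members of 5 gene lists on the 7th generation array, on a log axis, with Cy3 of the 7th generation at the left of each panel and Cy5 of the 1st generation at the right. Each line is 1 gene, red where it was at least 2-fold higher and blue where it was at least 2-fold lower after normalisation, and the dashed line joins the medians of all features, 496 and 161. Lines of the 6 iron genes in red fall more steeply than the dashed line, while blue lines of the mating, one-carbon and purine lists are nearly level or climb.

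Genes for other surface proteins lay mostly above 0. Cell wall integrity targets, controlled by the kinase Slt2 and the factor Rlm1, had a median of 0.48 with 3 of 21 at least 2-fold higher and none lower. HSP150, a wall protein of the PIR family, gave 17866 in the 7th generation and 2124 in the 1st, 4.10-fold higher. YPS1, a surface aspartyl protease, gave 5658 in the 7th generation and 651 in the 1st, 3.01-fold higher, and SED1, a major wall protein of stationary cells, was 2.57-fold higher. PIR1, of the same family as HSP150, was at -0.51. The seripauperins and cold-shock mannoproteins, a wall protein family induced by cold and low oxygen, had 24 of 25 measured members above 0, 4 at least 2-fold higher and none lower, and a median of 0.46. TIR1 gave 1678 in the 7th generation and 140 in the 1st, 3.24-fold higher, TIR4 was 3.16-fold, PAU9 2.98-fold and PAU10 2.74-fold higher. Seripauperin genes are near-identical copies, so the value of a single member is uncertain. The family had a median of 0.30 at the 4th generation and 1.64 at the 11th.

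Stress genes were led by TMA10, a ribosome-associated protein, with 1420 in the 7th generation and 129 in the 1st, 2.86-fold higher. SPI1, a wall protein of stress, gave 1372 in the 7th generation and 219 in the 1st, 2.67-fold higher. The list of general stress and stationary phase genes had 17 of 19 measured members above 0, 2 at least 2-fold higher and none lower, and a median of 0.58. YGP1 and SPG4 were just short of 2-fold at 0.99 each, and YGP1 passed it with block centring, at 1.24. SPG4 had 182 in the 7th generation and 29.3 in the 1st, close to the background limit of 26.4, and its log2 ratio was 1.43 without background correction, 2.80 with blank subtraction and 2.68 in the authors' deposited table. HSP12 was at 0.58. TMA10 had 0.83 at the 4th generation and 4.16 at the 11th, and the medians of the list were 0.39 and 1.14.

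Chaperone genes lay on both sides of 0. Of 27, CUR1 and the Hsp40 co-chaperone SIS1, at 2.47-fold higher, passed 2-fold, and the median was 0.08. The small heat shock protein HSP26 was at -0.93, against -2.06 at the 4th and 0.75 at the 11th generation, and the Hsp90 activator AHA1 was lower by just under 2-fold. In the endoplasmic reticulum list ERO1, which oxidises thiols of folding proteins, was 2.33-fold higher and the 1 member of 12 past 2-fold. Antioxidant enzymes had a median of -0.29 with 3 of 20 at least 2-fold lower and none higher. GPX2, a glutathione peroxidase, gave 248 in the 7th generation and 273 in the 1st, 2.39-fold lower. CCP1, the mitochondrial cytochrome c peroxidase, was 2.08-fold lower, at a log2 ratio of -1.05 that was -0.69 after whole-array loess. TSA1, the main peroxiredoxin, was 2.37-fold lower, but its log2 ratio of -1.25 was -0.93 after whole-array loess and -0.84 with block centring, and its Cy5 signal varied 5.02-fold over the arrays. Both raw channels of TSA1 were dimmest on the 7th generation array. On the 4th, 7th and 11th it had Cy3 of 4879, 742 and 4626 and Cy5 of 3387, 502 and 2890.5. GPX2 alone of the 3 lower genes was past 2-fold under every scaling. AHP1, another peroxiredoxin, was at 0.54.

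Proteasome genes, which encode the machine that degrades ubiquitin-tagged proteins, had 27 of 34 above 0, a median of 0.47, 2 members at least 2-fold higher and none lower. PRE1, a subunit of the catalytic core, gave 4160 in the 7th generation and 626 in the 1st, 2.25-fold higher. RPN13, a ubiquitin receptor, was 2.18-fold higher, and its log2 ratio of 1.12 was 0.45 in the authors' deposited table. RPN4, the transcription factor for proteasome genes, was at 0.59. In the vacuole the proteases PRB1 and PEP4, which activate the other hydrolases, gave 2522 and 4611 in the 7th generation, against 148 and 526 in the 1st, and were 4.17-fold and 2.92-fold higher. The other 9 measured members of the vacuolar list had log2 ratios between -0.78 and 0.98. Autophagy genes had 1 of 36 past 2-fold, ATG41 at 2.96-fold lower, which was -0.92 on the log2 scale after whole-array loess, and a list median of 0.11 that turned to -0.029 with block centring.

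Genes of ribosome assembly had 69 of 88 above 0, a median of 0.38, 6 at least 2-fold higher and 1 lower. NOP53 was 2.45-fold, SDA1 2.26-fold and RLP24 2.22-fold higher, and these 3 were past 2-fold under every scaling. NOP53 gave 2925 in the 7th generation and 334 in the 1st. NOP56, NMD3 and NSR1, the first at 2.20-fold higher and the last just past 2-fold, were under 2-fold after whole-array loess and in the authors' deposited table, and the Cy5 signal of NSR1 varied 2.61-fold over the arrays. Cytosolic ribosomal proteins had 100 of 136 measured members below 0, a median of -0.18, 4 at least 2-fold lower and none higher. That count of 4 is near the 2.03% of all features that were at least 2-fold lower. The 4 were RPL22B, RPS13, RPS9A and RPL18B, of which RPL18B, at -1.33, was at -0.97 after whole-array loess and -0.94 with block centring. RPL22B was 2.46 lower on the log2 scale than its paralogue RPL22A at -0.07, and RPS9A was 1.34 lower than RPS9B at -0.14. The median difference within 58 paralogue pairs was 0.285. The Cy5 signals of RPL22B, RPS13 and RPL18B varied 3.12-fold, 3.80-fold and 3.21-fold over the arrays, and that of RPS9A 1.77-fold. In RPL22B, RPL18B and RPS9A both raw channels were dimmest on the 7th generation array. RPL18B had Cy3 of 5317, 1094 and 4137 and Cy5 of 3384, 806 and 2966 in order of generation. Mitochondrial ribosomal proteins had 2 of 67 past 2-fold, MRPL36 and MRPL1 at 2.23-fold and 2.02-fold higher, and a median of 0.15. That count is near the 2.32% of all features that were at least 2-fold higher. The Cy5 signal of MRPL36 varied 2.01-fold over the arrays, and both its raw channels were dimmest on the 4th generation array. The list median was 0.06 at the 4th generation and 0.51 at the 11th.

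In carbon metabolism hexose transporters held the most differences. Among 16 measured hexose transporters and sensors 3 were at least 2-fold lower, beside 2.03% of all features, and none higher. HXT4 gave 393 in the 7th generation and 685 in the 1st, 3.63-fold lower. HXT1, the low-affinity transporter of high glucose, gave 3441 in the 7th generation and 3880 in the 1st, 2.28-fold lower. HXT7 was 2.46-fold lower, and its Cy5 signal varied 3.12-fold over the arrays. The list's median of -0.15 was -0.83 with block centring, -0.77 with blank subtraction and -1.44 in the authors' deposited table. Glycolysis and fermentation genes have no settled direction: their median was 0.35 but -0.14 with block centring and -0.63 in the authors' deposited table, and FBA1, the 1 of 21 past 2-fold, was past it at 2.16-fold higher only in the main setting and 3 others. Respiratory and citric acid cycle genes encoded in the nucleus had a median of -0.05 with 1 of 42 past 2-fold, the cytochrome c gene CYC1, which gave 177 in the 7th generation and 210 in the 1st, 2.47-fold lower. None of the 5 measured proteins of mitochondrial DNA passed 2-fold. UGP1, which makes UDP-glucose, was the 1 of 16 trehalose and glycogen genes past 2-fold, 2.22-fold lower, and was -0.98 on the log2 scale with block centring.

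Phosphate genes had a median of -0.51 with 4 of 16 at least 2-fold lower and 1 higher. The acid phosphatase PHO3 gave 1755 in the 7th generation and 1955 in the 1st, 2.53-fold lower. PHO89, a sodium-dependent phosphate transporter, gave 4396 in the 7th generation and 905 in the 1st, 2.19-fold higher, and was at 0.68 in the authors' deposited table. PHM6 and PHO5 were 2.32-fold and 2.15-fold lower and VTC4, of the polyphosphate polymerase, 2.46-fold lower. These 3 were under 2-fold after whole-array loess, and the Cy5 signal of VTC4 varied 2.54-fold over the arrays. Both raw channels of VTC4 were brightest on the 7th generation array. Among 16 amino acid permeases 2 were at least 2-fold higher, MUP1 and the dicarboxylic amino acid permease DIP5, and 2 lower, the histidine permease HIP1 and AGP1. DIP5 gave 3056 in the 7th generation and 254 in the 1st, 3.63-fold higher. HIP1 gave 669 in the 7th generation and 445 in the 1st, 2.46-fold lower, but its log2 ratio of -1.30 was -0.92 both after whole-array loess and with block centring.

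Among 23 replication genes 3 were at least 2-fold higher and 2 lower. The ribonucleotide reductase subunits RNR3, RNR4 and RNR2, which make deoxynucleotides, were 3.25-fold, 3.12-fold and 2.07-fold higher. RNR2 had a log2 ratio of 1.05 that was 0.76 after whole-array loess, 0.98 with block centring and 0.33 in the authors' deposited table. RNR3, a subunit strongly induced by DNA damage, gave 1199 in the 7th generation and 80.9 in the 1st, and it was past 2-fold under every scaling. RNR4 gave 19140 in the 7th generation and 5450 in the 1st, and its log2 ratio of 1.64 was 0.93 with block centring and 0.19 in the authors' deposited table. POL1 and POL12, subunits of DNA polymerase alpha, were 2.45-fold and 2.30-fold lower. POL1 was -0.73 on the log2 scale after whole-array loess, and the Cy5 signal of POL12 varied 2.05-fold over the arrays. The median of the list was 0.03. CLB1, a mitotic cyclin, gave 3376 in the 7th generation and 285 in the 1st, 3.56-fold higher, and was the 1 of 13 cyclin genes past 2-fold, in a list whose median of -0.16 turned to 0.052 with block centring. CLB2, its close relative, was at -0.16, and the G1 cyclin CLN2 was at -0.99. None of 11 histone genes passed 2-fold, and HTA1 and HTA2, near-identical copies, were at 0.70 and -0.74.

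Ergosterol genes had 2 of 26 members at least 2-fold higher, and the eisosome and multidrug transporter lists had 1 each. HES1, a homologue of oxysterol-binding proteins, gave 567 in the 7th generation and 48.6 in the 1st, 2.42-fold higher, and UPC2, the sterol-sensing transcription factor, was 2.15-fold higher, with a log2 ratio of 1.10 that was 0.73 after whole-array loess. The other 24 ergosterol genes were within 2-fold, and the median of the list was 0.08. In the eisosome list FHN1 was the 1 of 15 past 2-fold, and the list's median of 0.13 turned to -0.016 with block centring. The polyamine transporter TPO4 was the 1 of 14 multidrug and polyamine transporters past 2-fold. It gave 987 in the 7th generation and 72.1 in the 1st, 3.01-fold higher. Thiamine and vitamin B6 genes had no member of 17 past 2-fold.

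The median log2 ratio of all features was 0.0094. Lists whose medians are not given above had -0.0040 for the glyoxylate cycle, 0.0023 for thiamine and vitamin B6, 0.03 for vacuolar proteases, 0.06 for mitochondrial DNA-encoded proteins, 0.09 for arginine and lysine synthesis and -0.10 for histones. Folding in the endoplasmic reticulum and trehalose and glycogen genes each had -0.15. Multidrug transporters had 0.10, which turned to -0.067 with block centring, and amino acid permeases 0.23. Genes of which no channel passed the background limit were left out, which touched 9 lists and removed most in the hexose transporters, 16 of 19 measured, and the mitochondrial DNA-encoded proteins, 5 of 8 measured.

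**Figure D4:**
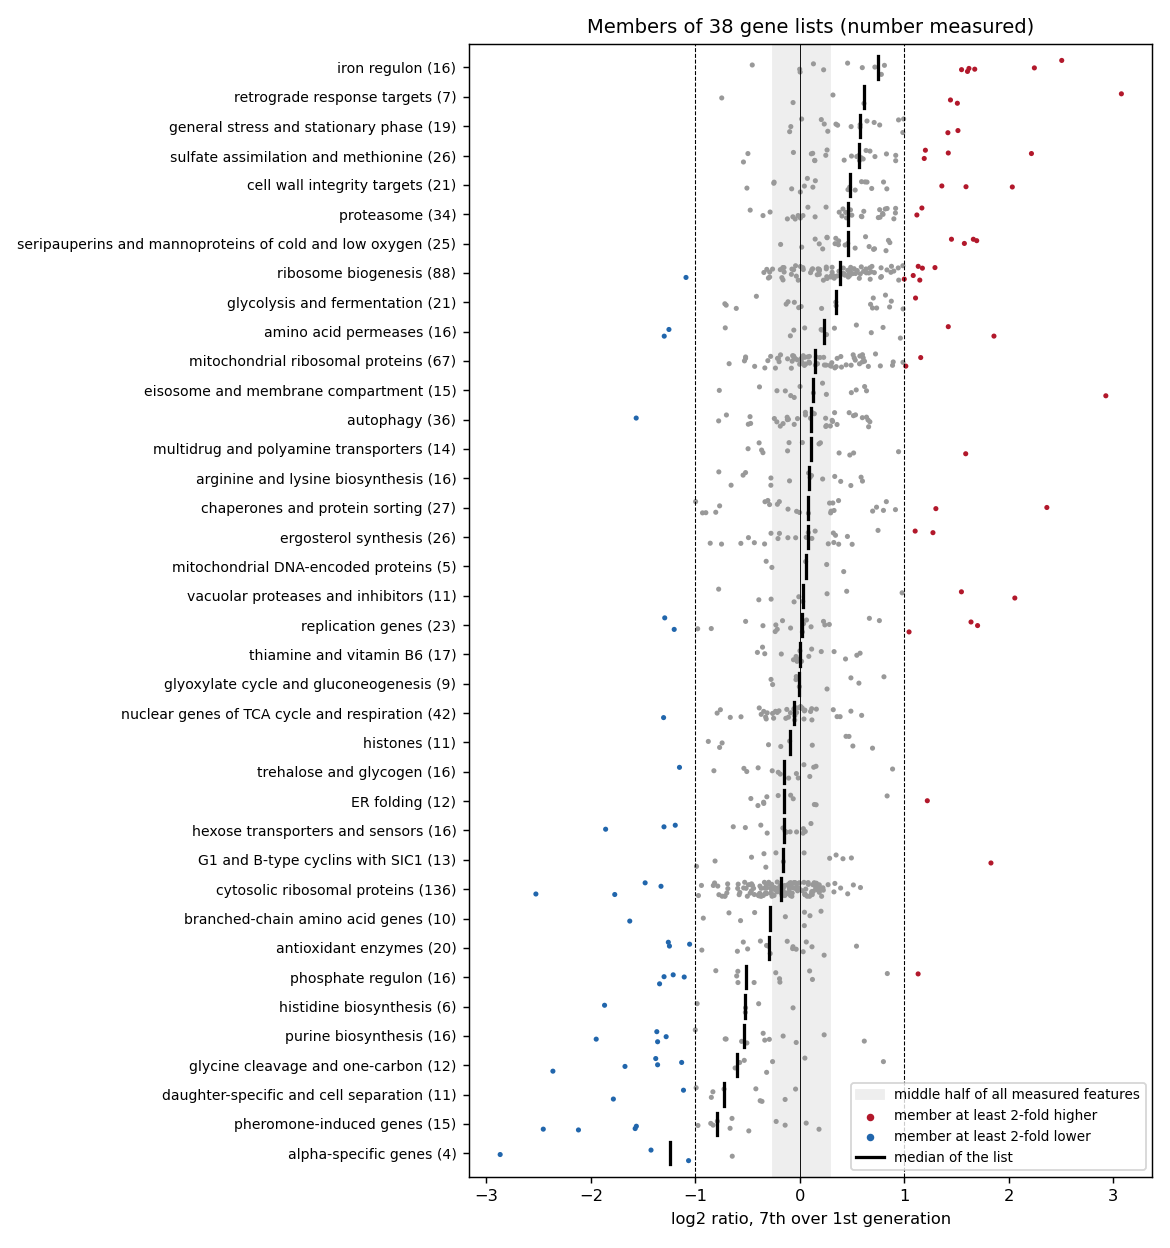
Log2 ratios of 7th over 1st generation (horizontal axis) for the measured members of 38 gene lists, one list per row, ordered by their median with the number measured in brackets. Points are genes, red at least 2-fold higher and blue at least 2-fold lower, black bars are medians, dashed lines mark 2-fold and the grey band is the interquartile range of all measured features, -0.26 to 0.29. The iron regulon, at 0.75, has the highest median and the alpha-specific genes, at -1.24, the lowest.

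A separate question was which features of the 7th generation array stood apart from both neighbours in time. The 6 features farthest above both other arrays and the 6 farthest below both were taken, by the smaller of the 2 differences, so their distance from those arrays is a description of how they were chosen. On the high side these were the IMP dehydrogenase IMD4, the vacuolar sorting gene VPS70, the helicase subunit MCM6, the wall protein PIR1, the box C/D snoRNP protein NOP58 and the transcription factor RAP1, at 1.44-fold to 1.62-fold above the nearer array. None of them was 2-fold from the 1st generation, NOP58 coming closest at 0.99. On the low side RPS13, a protein of the small ribosomal subunit, lay 3.31-fold below the nearer array and the cell wall integrity sensor SLG1 2.42-fold below. YPR063C, a protein of the endoplasmic reticulum, lay 2.02-fold, the nucleosome remodeller CHD1 1.94-fold, the ribosome assembly GTPase BMS1 1.88-fold and AEP2, needed for translation of a mitochondrial ATP synthase message, 1.65-fold below.

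Cy5, the channel of the 1st generation, is part of the ratio by which these 12 were chosen, so the following values describe the choice. RPS13 had raw Cy3 signals of 18719, 16333 and 18183 on the 4th, 7th and 11th generation arrays, and Cy5 signals of 9103, 37796 and 10756. The older cells thus gave nearly the same raw signal on the 3 arrays, and the 7th generation array stood apart in Cy5. SLG1 showed the same, with Cy3 signals of 1686, 1747 and 1852 and Cy5 signals of 320, 1064 and 378. Its log2 ratio of -1.04 at the 7th generation was -0.61 after whole-array loess, -0.76 with block centring and -0.92 in the authors' deposited table. SLG1 and RPS13 are neighbouring spots, at positions 201 and 202 of print block 4. CHD1 and PIR1 lie in that block too, at positions 258 and 324. Any part of the place on the array in these values was not tested. In CHD1 both channels of the 7th generation array were the brightest, with Cy3 of 89.9, 244 and 103 and Cy5 of 40.0, 153 and 39.6. The log2 ratio of CHD1, -1.03 at the 7th generation, was -0.81 after whole-array loess and -0.96 with block centring. In 3 others it was the 4th generation array that stood apart in Cy5, while the 7th and 11th were alike. IMD4 had Cy5 signals of 202, 998 and 1082 on the 4th, 7th and 11th generation arrays. NOP58 had 851, 2306 and 2095, and RAP1 had 1019, 421 and 475. In IMD4 and NOP58 the 4th generation array was also the dimmest in Cy3. Their Cy3 signals were 569, 3999.5 and 2815 in IMD4 and 4058.5, 11079 and 8225 in NOP58. RAP1 had Cy3 signals of 985, 1121 and 911. VPS70 and BMS1 were brightest in Cy5 on the 7th generation array, VPS70 with 76.4, 218 and 58.3 and BMS1 with 1465, 2792 and 1071. VPS70 was brightest there in Cy3 too, with 209, 1211 and 150. BMS1 was not, with Cy3 signals of 3843.5, 2366 and 2190.

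After normalisation the Cy5 signal of the other 4 varied less over the arrays, by 1.17-fold in PIR1, 1.41-fold in YPR063C, 1.55-fold in AEP2 and 1.85-fold in MCM6. The raw Cy5 signal of MCM6 was also highest on the 4th generation array, with 880, 395 and 424. YPR063C had Cy3 signals of 1586, 548 and 1765 and Cy5 signals of 921, 590 and 878, and its log2 ratio was -1.29 at the 7th generation, against -0.27 and -0.22 at the 4th and 11th. PIR1 had Cy3 signals of 3378, 5296 and 3492 and Cy5 signals of 2584, 2846 and 2860, with log2 ratios of -1.11, -0.51 and -1.19. Both rest on 1 spot of 1 array.

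**Figure D5:**
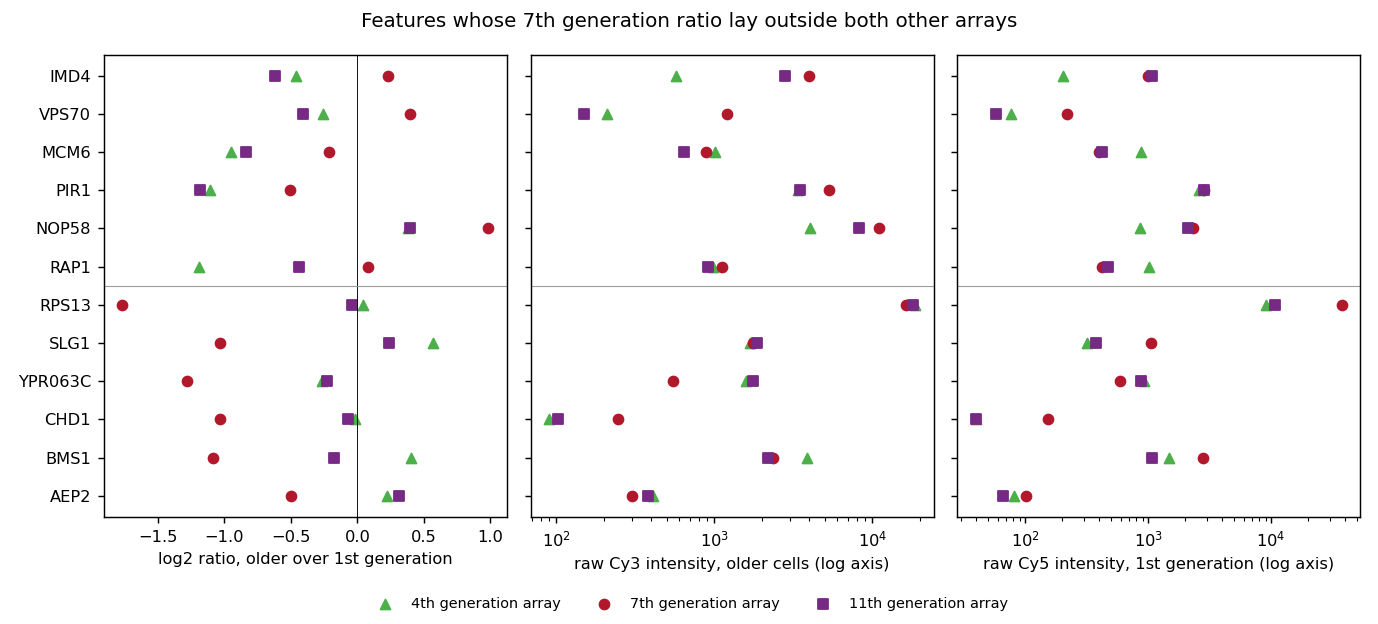
The 12 features whose 7th generation ratio lay farthest above (top 6) or below (bottom 6) both other arrays, with the log2 ratio of older over 1st generation (left), raw Cy3 intensity of the older cells (middle, log axis) and raw Cy5 intensity of the 1st generation (right, log axis) on the 4th (triangle), 7th (circle) and 11th (square) generation arrays. For RPS13 and SLG1 the 3 Cy3 points nearly coincide while the 7th generation Cy5 point stands apart, at 37796 and 1064.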

How the data were processed

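Per the file headers, each array file holds raw intensities of both channels, which the authors scanned without background subtraction, and the ratio of Cy3 to Cy5 that the authors deposited after subtracting a constant and scaling. The log2 values of the authors' series table equal the logarithm of that ratio within 5.0e-08. Here the raw intensities were corrected by normexp with an offset of 50 and normalised by loess within each of 16 print blocks of 392 spots, with control spots at weight 0 (limma 3.58.1, R 4.3.3). Tables were made in Python 3.11.15 with pandas 2.3.3 and numpy 2.4.6. The offset draws ratios of dim features towards 0. The log2 ratio is 7th over 1st generation. On simulated data for the 7th generation array, in which 200 of 5799 probes were changed 4-fold, 98.5% of those changed were recovered past 2-fold in the right direction and 0% of the unchanged were called. The simulated Cy3 was rebuilt from the real Cy5 with small noise, without dye bias of probes or faulty spots. Only probes well above the blank spots were changed. These settings leave little room for false calls, so the 0% is not an error rate of the real array.

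Of 5792 features 5730 matched the reference gene table by systematic name and 92 symbols were updated. The 35 features that name several loci were not named. Saturation in Cy5 touched TDH3 and 1 feature of several loci. The 3 probes of the series table without intensities in the array files were not used. Without block normalisation, even print blocks exceeded odd ones in median log2 ratio. This difference was 0.453 after whole-array loess and 0.791 for the ratios that the authors deposited. The main setting gave 0.0042, a value fixed by the method, since loess within each print block brings all blocks to a common centre. It therefore cannot show which scaling is nearer the truth.

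The 38 gene lists, the members and the alternatives were chosen with earlier results of these data known. By rule, the text names the 12 highest and 12 lowest features with 1 gene name past 2-fold. The rule also takes up to 4 members of each list with the largest absolute log2 ratio. It takes the 6 features above and the 6 below both other arrays too, and markers. Further members past 2-fold, and FET3, FTR1, FRE1, SER3, IMD2, IMD3, ASH1, CTS1, GPA1, FUS3, HSP12, AHP1, RPN4, CLB2, RPL22A and RPS9B, were named after their values were seen. A value moved when it changed by over 1.5-fold. Promoter motif searches that had been planned were not run, since no promoter sequences were used here.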

Additional observations from a re-analysis of the deposited data

Results flagged for a closer look

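Among the genes named by rule, 4 past 2-fold at the 7th generation had a log2 ratio of the opposite sign on another array. That opposite ratio was at least 0.1 in size. Each generation has 1 array, so the difference was not tested. RPS13, at -1.77 at the 7th generation, had 0.04 at the 4th, under that size. ARO10 had a log2 ratio of 2.25 at the 7th generation and -0.10 at the 11th, where its raw signals were 781 in Cy3 and 265 in Cy5, against 3303 and 269 on the 7th generation array. TPO4 had 1.59 at the 7th generation and -0.11 at the 11th, and its Cy5 signal varied 2.10-fold over the arrays. Both raw channels of TPO4 were dimmest on the 11th generation array. BMS1 had -1.09 at the 7th generation and 0.41 at the 4th, with a Cy5 signal that varied 2.44-fold over the arrays. SLG1 had -1.04 at the 7th generation, against 0.57 at the 4th and 0.24 at the 11th. It was under 2-fold in 3 of the 5 other scalings, and its Cy5 signal varied 3.34-fold over the arrays. Of the 4, ARO10 alone had a 1st generation signal within 1.08-fold on all 3 arrays.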

How the results depend on the processing

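Counts of features at least 2-fold higher and lower, 129 and 113, became 254 and 198 with loess over the whole array, 246 and 211 with each print block centred on its median, 322 and 322 with blank spots subtracted and 591 and 548 in the authors' deposited ratios. They were 166 and 158 without background correction. The 3 other filters on dim features gave the same counts of 129 and 113, since every counted feature was above background in both channels. In an alternative chosen after seeing the data, 125 and 100 were left without features whose 1st generation signal differed 2-fold between arrays. With block centring the list medians of glycolysis, eisosome, autophagy, cyclin and multidrug genes turned to -0.14, -0.016, -0.029, 0.052 and -0.067, and that of hexose transporters moved to -0.83. In the authors' deposited ratios glycolysis and eisosome genes turned to -0.63 and -0.0081, while purine, one-carbon, alpha-specific, hexose transporter, cytosolic ribosomal protein and seripauperin genes moved to -1.25, -1.36, -1.98, -1.44, -0.95 and 1.22. With blank spots subtracted the iron regulon moved to 1.35 and hexose transporters to -0.77. The other list medians kept their side of 0 wherever they were at least 0.1 from it. The following counts cover the genes named by rule, without those named after their values were seen. None of them past 2-fold changed sign under the 5 scalings. By over 1.5-fold, 5 of 188 moved with whole-array loess, 9 with block centring and 1 without background correction. With blank subtraction 20 moved, and in the authors' deposited ratios 63 of 187. The cause was not tested. No paired analysis was possible because each generation has 1 array and replicate numbers only follow the order of accession. Leaving out a replicate was not possible for the same reason. The Cy3 limit of 70.5 reflects an SD of 14.5 among blank spots, 1 of which reached 294.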

Other observations

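Of the genes deleted in BY4742, LEU2 had raw signals of 40.3 in the 7th generation and 22.8 in the 1st, below the background limit in both channels, and LYS2 and URA3 were above it only in Cy5, at 30.6 and 34.4. HIS3 gave 740 in the 7th generation and 430 in the 1st, with a log2 ratio of -1.10 that was -0.73 both after whole-array loess and with block centring. Whether the HIS3 probe falls inside or outside the deletion is not known here.

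Genes of meiosis and sporulation, which a haploid does not use, were dim in both channels, with raw signals between 62.2 and 193.5 in the 7th generation and between 26.5 and 98.0 in the 1st. IME1, the master regulator of meiosis, was the lowest of the 7 by its log2 ratio, at -0.99, against -1.18 at the 4th generation and -1.05 at the 11th. NDT80, a later regulator, was at 0.49, against 0.52 and 1.19.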
